A study of Mus musculus with 20 samples.

Results

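The Hedgehog signalling genes examined here were *Shh*, *Ptch1*, *Smo*, *Hhip*, *Sufu*, *Gli1*, *Gli2* and *Gli3*, 8 of the 35580 genes to which the deposited transcripts were summed. They were chosen by name, with all 39 of their deposited transcripts added up per gene. The samples were hippocampus and neocortex (labelled cerebral cortex) of WT and miR-324-null mice, 5 samples in each of the 4 groups and 20 in all. All mice were C57BL/6J and 13.5 months old, and the study's text gives them as male. The null mice carry a CRISPR/Cas9 deletion at *Mir324* in every cell, made in embryos of mixed C57BL/6 and CBA/ca background and backcrossed, and WT and null mice were kept as lines bred from crosses of heterozygotes. The labels do not say whether the 5 samples of a group came from separate mice, or whether both tissues came from the same mice, so p values measure the spread between these samples.

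Hedgehog ligands such as Shh bind Patched receptors at the cell surface. Without ligand, Patched holds the membrane protein Smoothened inactive. With ligand, Smoothened gathers in the primary cilium and the Gli transcription factors are released from Sufu and from processing to repressors. *Gli1*, *Ptch1* and *Hhip* are themselves transcribed in response to the pathway in many tissues. In the adult forebrain the pathway is known for its part in maintaining neural stem cells, and its receptors and Gli factors are also found in astrocytes. *Smo* and *Gli1* are known as targets of miR-324-5p.

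In GRCm38 the ligand gene is *Shh* (ENSMUSG00000002633) at chr5:28456815-28467256 on the minus strand. The receptor genes are *Ptch1* (ENSMUSG00000021466) at chr13:63508328-63573598 on the minus strand and *Hhip* (ENSMUSG00000064325) at chr8:79965851-80058006 on the minus strand. The transducer is *Smo* (ENSMUSG00000001761) at chr6:29735503-29761365 on the plus strand, and the inhibitor *Sufu* (ENSMUSG00000025231) at chr19:46396896-46488804 on the plus strand. The transcription factor genes are *Gli1* (ENSMUSG00000025407) at chr10:127329882-127341974 on the minus strand, *Gli2* (ENSMUSG00000048402) at chr1:118834132-119053619 on the minus strand and *Gli3* (ENSMUSG00000021318) at chr13:15463235-15730026 on the plus strand.

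The 2 mature arms of mouse miR-324 lie on the plus strand of chromosome 11 in GRCm38, miR-324-5p at chr11:70012060-70012082 and miR-324-3p at chr11:70012095-70012114. Their RefSeq sequences are shown because the seed, bases 2 to 8 from the 5′ end and in capitals here, was what was searched for in the Hedgehog transcripts. The arms have different seeds.
miR-324-5p: cGCAUCCCcuagggcauuggugu
miR-324-3p: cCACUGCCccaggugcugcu

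Matches to miR-324-5p were searched on the sense strand of annotated protein-coding transcripts as GGGATGC (7mer-m8), GGATGCA (7mer-A1), GGGATGCA (8mer) and GGATGC (6mer), each place counted once under its longest form. In the 3′UTRs, *Smo* held a 6mer alone, *Gli3* a 6mer and *Hhip* 2 6mers, while *Gli1*, *Gli2*, *Ptch1* and *Shh* held no match. The 3′UTR of *Gli1* is short, at 165 bases, and that of *Smo* has 1080. *Sufu* held an 8mer, in the 857-base 3′UTR of the *Sufu*-204 transcript, which accounted for a mean of 0.547% of the TPM of *Sufu* over the 20 samples. Among 14740 expressed genes with a 3′UTR, 15.2% held a 7mer or 8mer and 27.7% any match. Among those with a 3′UTR within 20% of the length of that of *Smo*, 21.2% held any match, and the share was 2.36% for *Gli1*. It was 50.2% for *Gli3* and 72.7% for *Hhip*. For *Sufu*, by its longest 3′UTR of 2860 bases, 45.8% held any match and 4.95% an 8mer. The 6mer of *Smo*, at chr6:29761273-29761278 on the plus strand, and the 8mer of *Sufu*, at chr19:46455656-46455663 on the plus strand, stand in capitals in these lines.
Smo 3′UTR: tcaagaaccagacaacaGGATGCctt
Sufu-204 3′UTR: agccctggggccatttGGGATGCAca

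Upstream of the 3′UTR, in the 5′UTR and coding sequence, *Gli1*-201 held a 7mer-m8 and a 6mer for miR-324-5p, and *Smo*-201 held a 7mer-A1. The *Gli1* 7mer begins at base 1202 of the transcript (chr10:127336531-127336537, minus strand), and the *Smo* 7mer at base 2678 (chr6:29760264-29760270, plus strand). Both are printed because they are the longest matches to miR-324-5p in these targets. Of expressed genes with an upstream part within 20% of that of *Gli1*, 39.4% held a 7mer or 8mer there, and the share was 30.9% for *Smo*. Other members held such matches too. *Gli2*-201 held a 7mer-A1 and 2 6mers for miR-324-5p, both *Ptch1*-201 and *Ptch1*-202 a 7mer-A1, and *Gli3*-201 a 6mer. For miR-324-3p, *Smo*-201 held an upstream 8mer. Upstream 7mers for that arm lay in *Gli1*-201, *Gli2*-201 and *Hhip*-201 (7mer-m8) and in *Gli3*-201 (7mer-A1). The share of all genes with an upstream match to miR-324-3p was not counted. A match is a description of letters and not evidence of binding.
Gli1 upstream: acaggatcacctgttgGGGATGCtgg
Smo upstream: atggaggctgagatcttGGATGCAga

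For miR-324-3p the letters searched were GGCAGTG (7mer-m8), GCAGTGA (7mer-A1), GGCAGTGA (8mer) and GCAGTG (6mer). The 3′UTR of *Smo* held a 7mer-m8 at chr6:29760537-29760543 and a 7mer-A1, *Sufu* held a 7mer-m8, and *Gli3* and *Ptch1* held 7mer-A1 matches. *Shh*, *Gli1*, *Gli2* and *Hhip* held none. A 7mer or 8mer for this arm was present in the 3′UTRs of 24.6% of expressed genes. Among 3′UTRs within 20% of the member's length, the share was 18.9% for *Smo*, 40.1% for *Sufu*, 45.1% for *Gli3* and 44.3% for *Ptch1*. For the members without a match it was 18.7% (*Shh*), 2.73% (*Gli1*), 28.3% (*Gli2*) and 59.8% (*Hhip*). The *Smo* 7mer-m8 is shown as the longest match to this arm in the 3′UTR of a target of the other arm.
Smo 3′UTR, miR-324-3p: caatcagagtctgactGGCAGTGtta

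The libraries held between 12752439 and 19617765 estimated counts, and no pair of files held identical values. Markers of the hippocampus summed to 153 to 233 TPM in the hippocampus samples and to 6.98 to 31.9 TPM in the neocortex, and markers of the neocortex to 318 to 561 TPM in the neocortex and to 93.8 to 152 TPM in the hippocampus, so each sample carried the markers of its labelled tissue. Markers of neighbouring tissue varied among the neocortex samples, with overlap between genotypes. The 5 striatum markers summed to 173 to 441 TPM in null and 105 to 257 TPM in WT samples, with all 5 higher in null at an unadjusted p of at most 0.05 and none past the adjusted threshold. The 4 hippocampus markers tested there had positive log2 fold changes of null over WT and the 5 neocortex markers negative ones, again with none past it. WT neocortex sample 2, at 257 TPM of striatum markers, lay above 3 of the null samples, and null sample 5 had the highest neocortex sum, 561 TPM. The part of these markers in the genotype comparison of the neocortex was not tested. The 5 choroid plexus markers summed to over 1000 TPM in 3 libraries, namely WT hippocampus sample 3 (6927 TPM), null hippocampus sample 5 (5993 TPM) and null neocortex sample 2 (1282 TPM), and to 17.4 to 179 TPM in the others. Results below are also given without these 3 libraries where a call or a direction changed, a choice made after seeing the data. The level of miR-324 itself was not analysed here, since libraries of this kind do not measure so short an RNA.

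The 8 genes were ordered by their TPM, a level scaled to a fixed total per library and corrected for transcript length. *Ptch1*, the main Hedgehog receptor, was the most abundant in 3 of the 4 groups, at 12.4 ± 0.868 TPM in WT hippocampus, 13.8 ± 0.763 in WT neocortex and 14.3 ± 2.16 in null neocortex (mean ± SD, n = 5). *Smo*, the signal transducer, led in null hippocampus at 10.99 ± 2.59 TPM, against 10.05 ± 1.79 for *Ptch1*, with overlapping ranges. *Smo* stood at 10.6 ± 2.26 TPM in WT hippocampus but at 5.29 ± 0.476 in WT and 5.65 ± 0.876 in null neocortex, where it ranked below *Sufu* with overlapping ranges. *Sufu*, the cytoplasmic inhibitor of Gli factors, lay between 6.55 ± 1.195 TPM (WT neocortex) and 8.25 ± 3.08 (WT hippocampus), the latter with 1 sample at 13.56 TPM. These 3 genes stood clear of the rest, with no overlap of sample ranges between the lowest of them and *Gli3* in any group.

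The Gli factors, the decoy receptor *Hhip* and the ligand *Shh* were far lower. Group means of *Gli3* lay between 1.97 and 2.65 TPM, of *Hhip* between 1.75 and 2.23, of *Gli2* between 1.36 and 1.69 and of *Gli1* between 1.29 and 1.86. Neighbours in this part of the order overlapped in their sample ranges in all 4 groups. *Shh* was lowest throughout, at 0.526 ± 0.116 TPM in WT hippocampus, 0.648 ± 0.271 in null hippocampus, 1.45 ± 0.182 in WT neocortex and 1.22 ± 0.140 in null neocortex, and it was separate from the next gene in WT hippocampus only. Over the 15391 genes kept in a fit of all samples, 45.6% had a lower mean TPM than *Ptch1*, 35.7% a lower one than *Smo*, and 7.47% a lower one than *Shh*.

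**Figure D1:**
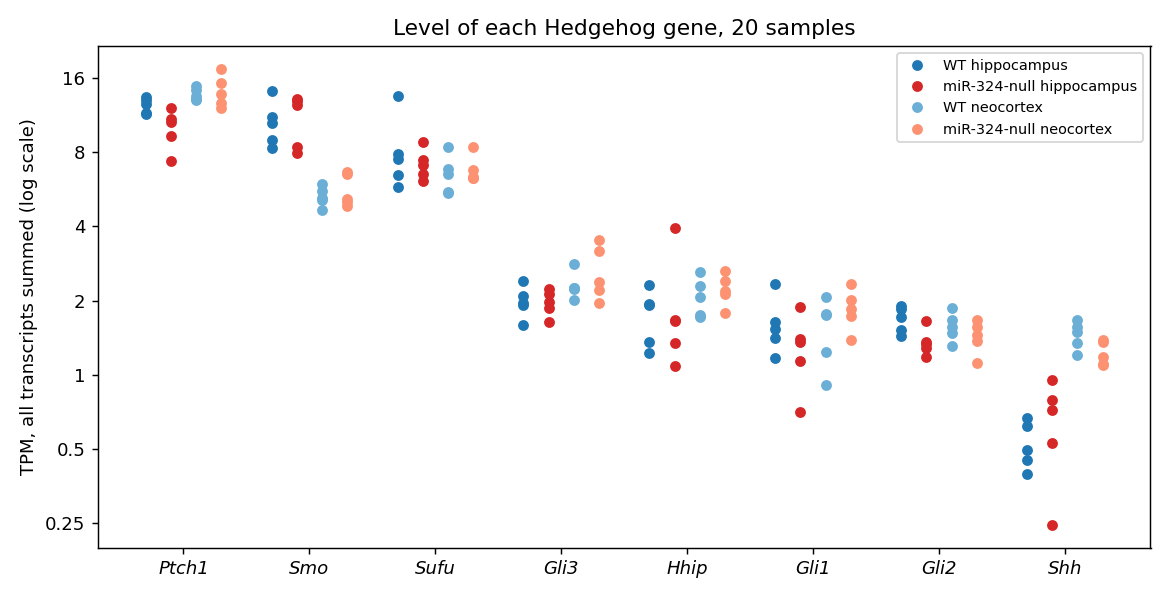
Level of each gene in TPM on a log axis, 1 point per sample, coloured by group. *Ptch1*, *Smo* and *Sufu* lie above the other 5 genes, and *Shh* is lowest, with group means between 0.526 and 1.45 TPM.

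Most of each gene's TPM came from a leading protein-coding transcript, with exceptions that bear on its level. *Smo*-201 made up 96.8% of the TPM of *Smo*, *Gli3*-201 95.6%, *Gli2*-201 94.2% and *Ptch1*-202 83.5% (means over 20 samples), and *Shh* has a single deposited transcript. *Gli1*-201 made up 80.2% of *Gli1*, and *Gli1*-205, a 795-base transcript with a retained intron, 16.8%. The share of *Gli1*-205 was 29.0% in WT hippocampus and 13.4%, 8.54% and 16.4% in null hippocampus, WT neocortex and null neocortex. *Hhip*-202, a 1173-base non-coding transcript, made up 27.8% of *Hhip*, between 16.4% in WT hippocampus and 33.2% in null hippocampus. *Gli1*-205 held a mean of 1.68 estimated counts per sample and *Hhip*-202 a mean of 5.38, so their shares rest on a few reads. In the WT hippocampus sample with 13.56 TPM of *Sufu*, the 334-base non-coding *Sufu*-205 made up 53.0% of it from 7.42 estimated counts, and protein-coding transcripts alone gave a group mean of 6.81 ± 0.858 TPM. With protein-coding transcripts alone the mean over 20 samples was 1.26 ± 0.328 TPM for *Gli1*, against 1.58 ± 0.440 with all, and 1.40 ± 0.350 for *Hhip*, against a mean of 2 with an SD of 0.634.

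The genotype comparison asks whether these genes differ in mice without miR-324. None of the 8 passed the test in either tissue (edgeR's quasi-likelihood test, adjusted p of at most 0.05 over all genes), where 0.115% of 14796 hippocampus genes and 0.315% of 14930 neocortex genes passed. At an unadjusted p of at most 0.05, 1 of 8 passed in hippocampus and 0 passed in neocortex, against 11.1% and 12.2% of all genes, and DESeq2's Wald test called 0 in both. The median log2 fold change of the 8 was -0.08 for hippocampus and 0.05 for neocortex, beside 0.0012 and 0.0046 over all genes tested. Levels below are CPM, counts scaled to a fixed library total with TMM factors, which compare samples within a gene and not genes with each other.

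In the hippocampus *Smo* stood at 19.5, 19.95, 31.2, 23.8 and 23.6 CPM in WT samples 1 to 5 and at 29.8, 29.0, 17.3, 18.1 and 29.2 CPM in null samples. The null samples fell into 3 near 29 and 2 near 18, and the WT range lay across the gap. In the 2 near 18, samples 3 and 4, the neocortex markers summed to 152 and 140 TPM, against 97.8 to 107 TPM in the 3 near 29. The sum was 93.8 TPM in WT sample 3, the highest in *Smo*, and 122 to 129 TPM in the other WT samples. The part of these markers in the spread of *Smo* was not tested. The log2 fold change of null over WT was 0.06 with a 95% interval from -0.33 to 0.45 (adjusted p = 0.936). In the neocortex the WT samples held 12.5, 10.8, 10.9, 12 and 11.7 CPM and the null samples 14.7, 13.95, 9.86, 10.7 and 10.8 CPM. The null samples again spread to either side of the WT samples, 2 above them and 2 below. Null differed from WT by 0.06 on the log2 scale with an interval from -0.19 to 0.30 (adjusted p = 0.893). These intervals concern mRNA, and a change in translation alone would not be seen here.

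*Gli1*, the transcriptional activator most often read as a sign of pathway activity, stood at 3.45, 2.84, 2.14, 2.36 and 2.575 CPM in WT and 3.98, 2.37, 3.20, 1.64 and 2.56 CPM in null hippocampus. The highest and the lowest of these 10 samples were both null. The log2 fold change was 0.04 (interval -0.45 to 0.53, adjusted p = 0.974), and it turned to -0.32 with a correction for the length of the transcripts used. In the neocortex WT samples held 3.60, 3.11, 3.88, 3.11 and 2.265 CPM and null samples 3.37, 4.245, 4.04, 3.19 and 3.15 CPM. All 5 null samples lay above the WT median, and the ranges overlapped. Null differed from WT by 0.18 on the log2 scale (interval -0.18 to 0.53, adjusted p = 0.717). *Gli1* rests on 22 to 84 estimated counts per sample.

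*Ptch1* gave the smallest p in the hippocampus. WT samples held 53.0, 58.6, 54.2, 52.8 and 45.6 CPM and null samples 32.85, 41.25, 48.4, 45.8 and 45.35 CPM. All 5 null samples were below the WT median and 3 were below every WT sample. The log2 fold change was -0.31 (SE 0.0981, interval -0.52 to -0.09), with an unadjusted p of 0.00863 and an adjusted p of 0.318. Leaving out any sample gave between -0.35 and -0.23, never past the threshold. In the neocortex *Ptch1* stood at 58.4 ± 1.35 CPM in WT and 57.0 ± 7.07 in null samples (SD, n = 5), with a log2 fold change of -0.03 (adjusted p = 0.925). The spread of the null samples, from 49.7 to 67.9 CPM, took in the whole WT range from 56.9 to 60.6.

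*Gli2*, which is processed to both activator and repressor forms, was the gene without overlap between genotypes. In the neocortex WT samples held 6.05, 5.50, 5.53, 5.79 and 6.86 CPM and null samples 4.54, 5.255, 5.11, 5.44 and 4.94 CPM. Every null sample was below every WT sample, as in 2.33% of all genes in one direction or the other, but the nearest values were 5.44 and 5.50. The log2 fold change was -0.22 (interval -0.45 to 0.00069), with an unadjusted p of 0.0506 and an adjusted p of 0.410. In the hippocampus it was -0.25 (adjusted p = 0.499), from 6.12, 7.49, 6.11, 5.35 and 6.97 CPM in WT and 5.70, 4.97, 6.52, 4.99 and 4.78 CPM in null samples, and there the ranges overlapped. Neither difference passed.

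The ligand *Shh* had log2 fold changes of opposite sign in the tissues, 0.28 for hippocampus (interval -0.42 to 0.99, adjusted p = 0.796) and -0.28 for neocortex (interval -0.61 to 0.04, adjusted p = 0.487). *Gli3*, mainly a repressor, gave -0.11 and 0.05, *Sufu* -0.06 and 0.05, and *Hhip* -0.22 and 0.06, with adjusted p between 0.753 and 0.923 in these 6 tests. The difference between the genotype effects in the tissues was tested as an interaction. None of the 8 passed (0.0195% of 15391 genes did, and DESeq2 also called 0 of the 8), and at an unadjusted p of at most 0.05 there was 1, *Ptch1*, where 5.57% of all genes had such a p. Its interaction was -0.27 on the log2 scale (interval -0.54 to -0.0038, unadjusted p = 0.0471, adjusted p = 0.889), while that of *Shh* was 0.57 (adjusted p = 0.915).

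**Figure D2:**
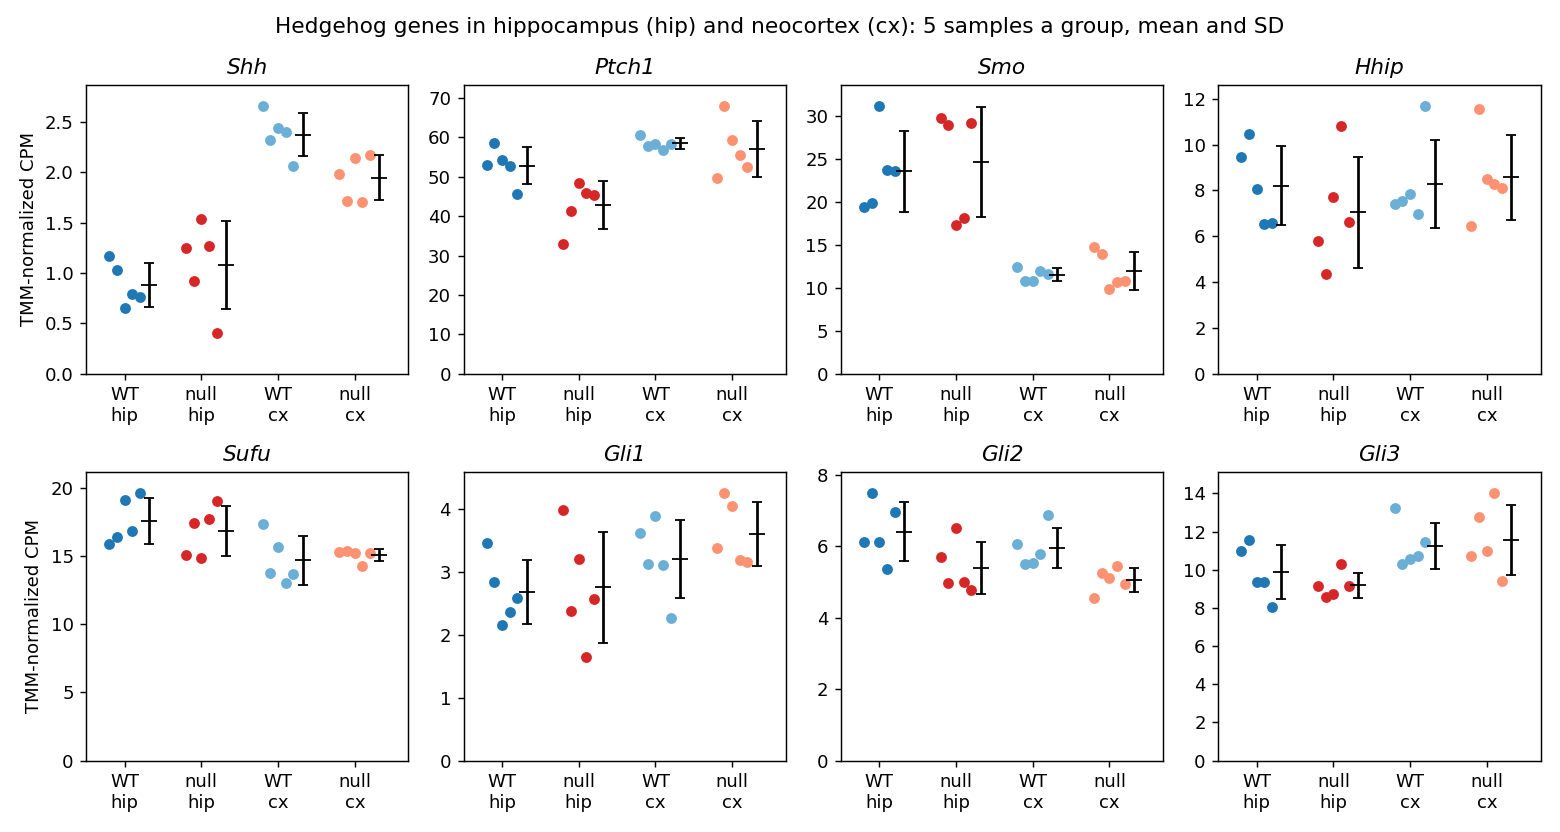
TMM-normalized CPM of the 8 genes in each sample (points, 5 per group, in sample order) with the mean and SD of the group beside them, for hippocampus (hip) and neocortex (cx). *Smo* is higher and *Shh* lower in hippocampus than in neocortex, while within a tissue WT and null samples overlap, except for *Gli2* in the neocortex, where the nearest values are 5.44 and 5.50 CPM.

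Between tissues, *Smo* and *Shh* passed in both genotypes. In WT mice 3 of the 8 passed between hippocampus and neocortex, 2 higher in hippocampus (*Smo* and *Sufu*) and 1 lower (*Shh*), where 36.1% of 14894 genes passed, 18.1% higher and 18.0% lower. In null mice 4 passed, 1 higher (*Smo*) and 3 lower (*Shh*, *Ptch1* and *Gli3*), where 27.4% of 15033 genes passed, 13.8% higher and 13.6% lower. The striatum markers differed between the same groups. Their median log2 fold change, hippocampus over neocortex, was -2.21 in null mice, with 5 of 5 passing. In WT mice it was -0.73, with 2 of 5 passing. The part of these markers in the calls made in null mice alone was not tested.

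*Smo* was 2.04-fold higher in hippocampus in WT mice and 2.07-fold higher in null mice. Its log2 fold changes were 1.03 (SE 0.119, adjusted p = 1.64e-05) and 1.05 (SE 0.179, adjusted p = 8.35e-04). The lowest hippocampus sample, at 17.3 CPM, lay above the highest neocortex sample, at 14.7 CPM, over all 20 samples. Within a genotype, with 5 samples against 5, a gap between tissues in either direction was present in 25.9% of genes in WT and 20.8% in null mice. The share of genes with a gap over all 20 samples was not counted. The highest WT hippocampus sample was the one with 6927 TPM of choroid plexus markers. Without the 3 libraries of high choroid plexus level the log2 fold changes were 0.91 (adjusted p = 2.80e-06) and 1.04 (adjusted p = 0.00449). The interaction of tissue and genotype was 0.01, with an interval from -0.47 to 0.49. In bulk tissue, fewer cells of a type and less RNA per cell cannot be told apart.

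*Shh* was lower in hippocampus. WT hippocampus held 1.17, 1.03, 0.650, 0.787 and 0.757 CPM and WT neocortex 2.65, 2.32, 2.435, 2.40 and 2.06 CPM. In null mice the hippocampus held 1.25, 0.918, 1.54, 1.27 and 0.404 CPM and the neocortex 1.98, 1.72, 2.14, 1.70 and 2.17 CPM. Hippocampus samples lay below neocortex samples in both genotypes without overlap. The log2 fold change was -1.41 in WT (SE 0.195, adjusted p = 7.43e-05) and -0.84 in null mice (SE 0.275, adjusted p = 0.0396). The lowest sample of all, null hippocampus sample 5, was the one with 5993 TPM of choroid plexus markers. Without the 3 libraries the values were -1.31 (adjusted p = 2.44e-04) and -0.66 (adjusted p = 0.0518), so that the call in null mice was lost. It was also lost on leaving out null hippocampus sample 1 or 2 or any 1 of the 5 null neocortex samples, with log2 fold changes from -0.89 to -0.79 there. The counts are small, 6 to 25 per hippocampus sample and 27 to 40 per neocortex sample.

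*Ptch1* was lower in hippocampus in null mice, with a log2 fold change of -0.41 (SE 0.107, adjusted p = 0.0130). The null hippocampus samples, given above, all lay below the null neocortex samples, which held 49.7, 67.9, 59.4, 55.6 and 52.5 CPM. Without the 3 libraries the value was -0.36 (adjusted p = 0.0432). In WT mice it was -0.14 (adjusted p = 0.0741), not past the threshold except without WT hippocampus sample 2, where it was -0.18 (adjusted p = 0.0249). The difference between the genotypes is the interaction given above, which did not pass.

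*Gli3* and *Sufu* passed narrowly and in 1 genotype each. *Gli3* in null mice held 9.13, 8.57, 8.74, 10.3 and 9.165 CPM in hippocampus and 10.7, 12.8, 10.99, 14.02 and 9.39 CPM in neocortex, with a log2 fold change of -0.33 (adjusted p = 0.0466). The ranges overlapped. That call was lost without any 1 of null hippocampus samples 1, 2, 3 and 5 or null neocortex samples 1 to 4, with values from -0.35 to -0.25, and without the 3 libraries at -0.29 (adjusted p = 0.152). *Sufu* in WT mice held 15.9, 16.4, 19.1, 16.8 and 19.6 CPM in hippocampus and 17.3, 13.75, 15.7, 13.0 and 13.7 CPM in neocortex, with a log2 fold change of 0.26 (adjusted p = 0.0439). All 5 hippocampus samples were above the neocortex median, but WT neocortex sample 1 was within their range. That call was lost without any 1 of WT hippocampus samples 3, 4 and 5 or WT neocortex samples 2, 4 and 5, with values from 0.22 to 0.27, and without the 3 libraries at 0.23 (adjusted p = 0.0879). It passed in 4 of 8 other settings, and was lost without the filter, with length offsets in edgeR or DESeq2 (adjusted p up to 0.225) and with a replicate block.

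*Gli1*, *Gli2* and *Hhip* did not pass between tissues in either genotype. *Gli1* gave -0.25 in WT and -0.38 in null mice (adjusted p = 0.311 and 0.209), *Gli2* 0.11 and 0.10, and *Hhip* -0.01 and -0.28. The value of *Gli1* in WT mice turned to 0.11 with the correction for transcript length.

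**Figure D3:**
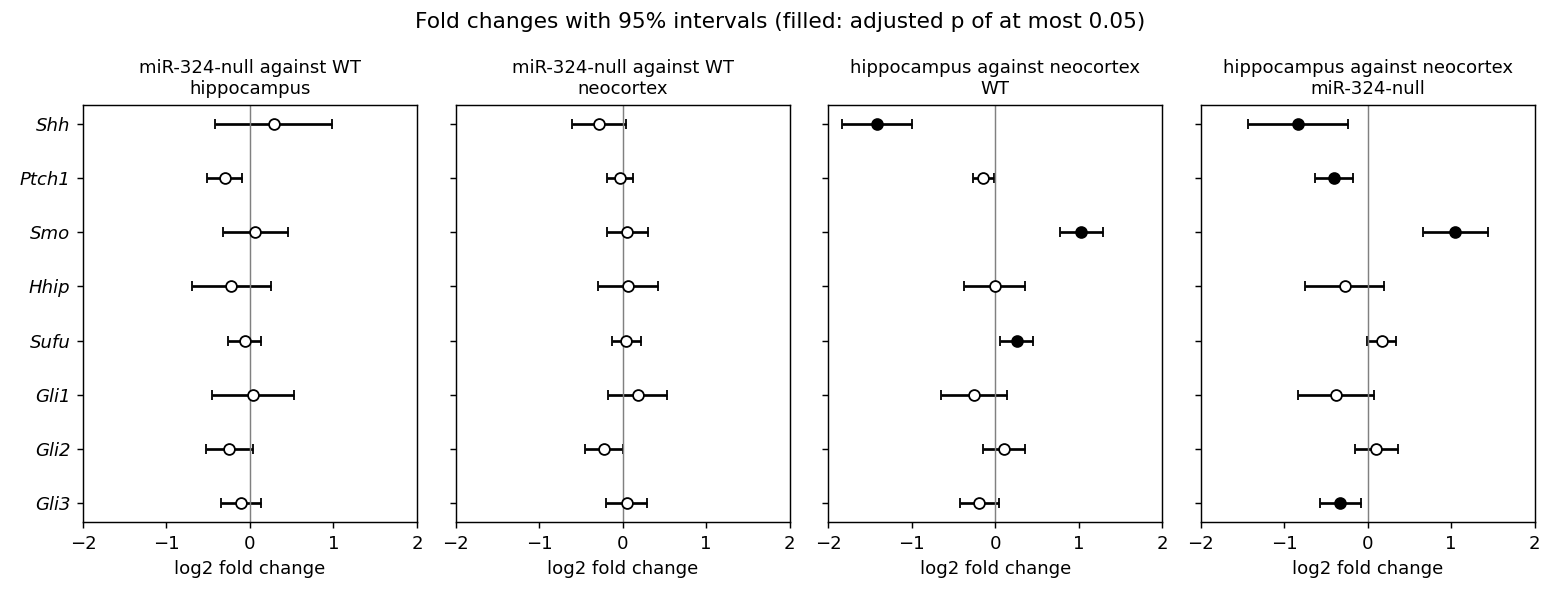
Log2 fold changes of the 8 genes (points) with 95% intervals (bars) in the 2 genotype and the 2 tissue comparisons, filled where the adjusted p is at most 0.05. No point is filled in the genotype panels, and *Smo* lies near 1 in both tissue panels, at 1.03 and 1.05.

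The wider pathway was read from 56 further genes in lists of ligand processing, receptors and co-receptors, signal transducers and Gli regulators, the primary cilium, and transcripts known to respond to Hedgehog. Between genotypes 0 of 54 tested passed in hippocampus and 0 of 52 passed in neocortex by edgeR, with 6 at an unadjusted p of at most 0.05 in each, where such a p was held by 11.1% and 12.2% of all genes. DESeq2's Wald test called 0 and 1. The median log2 fold change was -0.0048 for hippocampus and -0.03 for neocortex. The smallest p in the hippocampus belonged to *Tulp3*, which carries receptors into the cilium, at a log2 fold change of -0.23 (adjusted p = 0.308; -0.38 with adjusted p = 0.0328 in DESeq2 with length offsets), and to *Spop*, an adaptor of the ubiquitin ligase that degrades Gli2 and Gli3, at -0.16 (adjusted p = 0.317). In the neocortex they belonged to *Spop* at -0.22 (adjusted p = 0.0708) and *Scube3*, a secreted protein of a family that helps release ligand, at 0.81 (adjusted p = 0.244). The paper, with DESeq2, reports *Spop* as significantly lower in null mice in both tissues. Here *Spop* in the hippocampus did not pass under any alternative, the DESeq2 fits included, or on leaving out any sample.

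*Spop* in the neocortex lay near the threshold. The gene lies at chr11:95414080-95493406, on the same chromosome as *Mir324*. The part of strain sequence linked to the deletion was not tested. The TPM of *Spop* was 118, 98.4, 108, 104 and 99.6 in WT and 85.0, 100.3, 93.1, 96.6 and 91.4 in null samples. Null sample 2 was the single null sample above any WT sample, the lowest 2 of which it exceeded. It was called by DESeq2, in a fit of all 20 samples, and on leaving out null neocortex sample 2 (-0.25, adjusted p = 0.0407) or sample 5 (-0.21, adjusted p = 0.0282). *Scube3* held 1.33, 0.961, 1.37, 1.09 and 1.06 TPM in WT and 1.30, 2.675, 3.58, 3.06 and 1.11 TPM in null neocortex. The 3 high null samples were sample 2, with high choroid plexus markers, and samples 3 and 4, with the highest striatum marker sums, 441 and 288 TPM. WT sample 2 and null sample 1, at 257 and 211 TPM of striatum markers, held 0.961 and 1.30 TPM of *Scube3*. The part of these markers in this difference was not tested. *Scube3* passed only without null neocortex sample 5 (0.97, adjusted p = 0.0277), where 5 of the pathway genes passed and 566 genes in all.

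Of the 10 listed responders, the number tested was 10 for hippocampus and 9 for neocortex, and 0 passed between genotypes by edgeR. Their median log2 fold change was -0.02 for hippocampus and -0.11 for neocortex. The other mammalian ligands were at low level, with *Ihh* at 0 to 0.511 TPM and *Dhh* at 0.0251 to 0.234 TPM over the 20 samples.

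Between tissues 25 of 52 pathway genes passed in WT mice, 11 higher and 14 lower in hippocampus, and 21 of 53 in null mice, 10 higher and 11 lower. The shares of all genes called are those given for the 8 members. Calls were shared by 18 genes, 72.0% of those of WT and 85.7% of those of null mice, all in the same direction. Over all genes 3342 were shared, 62.1% and 81.0%, of which 99.9% had the same direction. The 12 with the smallest p in each genotype are described here by role. Among receptors, *Gpr161*, a ciliary receptor that represses Hedgehog signalling, was 6.56-fold higher in hippocampus in WT mice (log2 fold change 2.71, adjusted p = 1.65e-09) and 5.32-fold higher in null mice (2.41, adjusted p = 4.17e-07). Its TPM was 13.2 to 16.8 in all hippocampus samples and 1.65 to 3.83 in all neocortex samples. *Boc*, a co-receptor for ligand, was lower at -0.63 in WT and -0.71 in null mice. *Lrp2*, an endocytic co-receptor, was higher at 1.75 in null mice (adjusted p = 5.65e-04) but reached only 0.263 to 0.621 TPM in that hippocampus group and was not tested in WT mice. Its value was 1.11 with length offsets.

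Among genes of ligand release, *Scube1* was lower in hippocampus, at -1.43 in WT and -1.25 in null mice, and *Disp2*, of the Dispatched family, was higher at 0.39 and 0.41. Among transducers and regulators, *Numb*, an adaptor that promotes degradation of Gli1, was lower at -1.003 and -0.88, *Prkacb*, a catalytic subunit of the kinase that primes Gli processing, at -0.73 and -0.66, *Arrb1*, a β-arrestin, at -0.44 and -0.46, and *Grk2*, a kinase of Smoothened, at -0.30 and -0.20. *Evc2*, which binds Smoothened at the cilium base, was higher at 0.39 and 0.70, and *Dyrk2*, a kinase of Gli2, at 0.35 in null mice (adjusted p = 7.82e-04), where WT gave 0.14 (adjusted p = 0.0699). *Evc2* and *Dyrk2* had the smallest p of the pathway genes in the interaction, at 0.30 and 0.21, with adjusted p of 0.821 and 0.856, so no difference between genotypes was shown.

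Responders moved in both directions between tissues. *Igfbp6*, which binds insulin-like growth factor 2, was lower in hippocampus at -1.96 (adjusted p = 3.57e-08) and -1.76 (adjusted p = 1.69e-05), and *Bcl2*, an inhibitor of apoptosis, at -0.68 and -0.73. *Ccnd2*, a cyclin of the G1 phase, was higher at 0.53 and 0.72, and at 1.06 and 1.25 with length offsets in edgeR. The calls named here for tissue without an adjusted p of their own had one of at most 0.0398, that of *Grk2* in null mice. Of the genes not called, the smallest p belonged to *Btrc*, a ubiquitin ligase adaptor (-0.14, adjusted p = 0.0638), and *Dyrk2* in WT, and to the ciliary genes *Ift172* (-0.18, adjusted p = 0.0669) and *Cep290* (-0.24, adjusted p = 0.0689) in null mice. Without the 3 libraries of high choroid plexus level 23 pathway genes passed in WT and 15 in null mice. Over all genes the number called went from 5378 to 4826 in WT and from 4125 to 3141 in null mice.

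**Figure D4:**
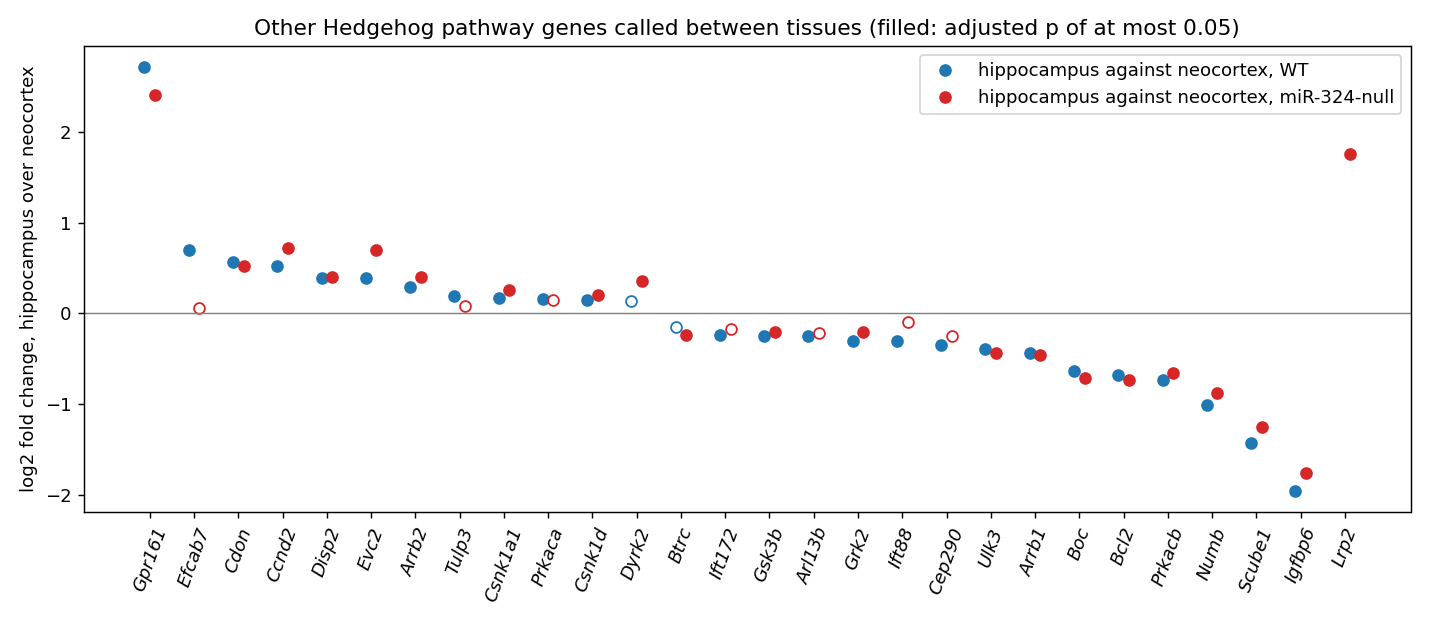
Log2 fold change, hippocampus over neocortex, of the 28 pathway genes called in WT or null mice (filled: adjusted p of at most 0.05; *Lrp2* was tested in null mice alone). The 18 genes called in both genotypes lie on the same side of 0 in both, from *Gpr161* at 2.71 and 2.41 to *Igfbp6* at -1.96 and -1.76.

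The genes whose log2 CPM followed each member most closely over the 20 samples were listed as a description. These points share the split into 2 tissues, and their r includes it. *Smo* was most like *Ctbp2*, *Lrp10* and *Kcng2* (Pearson's r of 0.96, 0.96 and 0.95), and *Shh* most like *Ntm*, *Trpv2* and *Arl4c* (0.94, 0.94 and 0.94). For *Ptch1* the likest were *Ntn4*, *Tns1* and *Zfp654* (0.90, 0.90 and 0.90), for *Hhip* *Wnk1*, *Npc1* and *Hipk2* (0.89, 0.83 and 0.83), and for *Sufu* *Hcar1*, *Ormdl3* and *Tunar* (0.88, 0.83 and 0.81). The likest of the Gli factors were *Ank2*, *Kif1a* and *Rnf130* for *Gli3* (0.85, 0.83 and 0.82), *Arid5a*, *Ptpn1* and *Pctp* for *Gli2* (0.80, 0.76 and 0.74) and *Setd4*, *Dcaf4* and *Khnyn* for *Gli1* (0.79, 0.77 and 0.76). Within the 4 groups, on deviations from the group means, 7 of these 24 genes stayed among the likest 3, and *Wnk1* for *Hhip* was the highest of them at 0.89. On the same deviations *Smo* correlated at 0.67 and *Shh* at -0.75 with *Ttr*, a choroid plexus transcript that the 3 libraries named above carry at high level. The other members ran from -0.33 (*Gli2*) to 0.39 (*Sufu*) with *Ttr*. Some other markers gave values of like size. *Gli3* correlated with the astrocyte markers *Gja1*, *Slc1a3*, *Aqp4* and *Aldh1l1* at 0.77, 0.72, 0.65 and 0.35. The astrocyte markers *Gfap* and *Slc1a2* were not correlated with the members. With *Slc1a3* the other members ran from -0.22 (*Sufu*) to 0.45 (*Hhip*). *Shh* correlated with the hippocampus marker *Prox1* at -0.64, but with the hippocampus markers *C1ql2* and *Fibcd1* at -0.22 each.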

How the data were processed

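The authors sequenced stranded mRNA libraries and, per the paper, ran kallisto against a GRCm38 transcriptome, then Tximport and DESeq2. The submitters' processing notes name kallisto and DESeq2 too, with GRCh38, a human build; the deposited identifiers are mouse. Use of strand by kallisto is not given in the sources used here. The deposited files hold estimated counts per transcript and TPM, which kallisto derives from those counts and effective lengths. Of 115270 transcripts, 113580 were matched by identifier to GENCODE vM21 (GRCm38) and the other 1690 (at most 0.56% of counts) left out. Sequences came from that set and, for the microRNAs, from RefSeq. Restricting the seed search to protein-coding transcripts, and searching upstream of the 3′UTR, were chosen after the first matches were seen.

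Counts were summed per gene, rounded, filtered with filterByExpr, scaled by TMM and tested with edgeR 4.0.16 (R 4.3.3) by its quasi-likelihood test, adjusting p over all genes by Benjamini-Hochberg, within each tissue or genotype, or over 20 samples for the interaction. Log2 CPM used a prior count of 2. Alternatives were DESeq2 1.42.0 size factors and Wald test, no filter, at least 10 counts in every sample, Tximport-style length offsets, 1 fit of all samples, a replicate block and samples left out. The steps were tested on simulated data. Depth limits *Shh* and *Gli1* most.

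The members and lists were chosen with earlier results of these data known. Named pathway genes were those called in a comparison (at most the 12 of smallest p) and the 2 uncalled of smallest p, and for likeness the top 3 per member, skipping predicted genes.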

Additional observations from a re-analysis of the deposited data

Results flagged for a closer look

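Dixon's test at the 95% level was applied to the 8 genes in each of 4 groups of 5 samples, 32 sets in all, of which chance alone flags about 1 in 20. A sample stood apart from the others of its group in 2 sets. *Hhip* in WT neocortex sample 5 was at 11.7 CPM, where the other 4 samples held 6.99 to 7.83 CPM. *Sufu* in null neocortex sample 4 was at 14.3 CPM, where the other 4 lay close together, at 15.2 to 15.4 CPM.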

How the results depend on the processing

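No gene of the 8 passed between genotypes, or in the interaction, under any alternative or with any sample left out. *Smo* in both genotypes, *Shh* in WT and *Ptch1* in null mice passed between tissues under every alternative and with every sample left out. The count of the 8 called between tissues in null mice was 4, and 2 without the filter, with edgeR's transcript-length offset, or without the 3 libraries of high choroid plexus level (added after seeing the data), and from 2 to 4 with a sample left out. Over all genes the count was 4125, and 3830, 3324 and 3141 in these settings in the same order. With a sample left out it ran from 3444 to 4145. Of the narrower calls, *Sufu* in WT passed in 4 of 8 other settings, and in null mice *Gli3* in 5 of 8 and *Shh* in 4 of the 7 in which it was tested. Pathway genes called between genotypes were 1 instead of 0 in hippocampus with DESeq2 and length offsets (*Tulp3*), and 1 in neocortex by DESeq2's Wald test, by DESeq2 with length offsets, in a fit of all 20 samples and without the 3 libraries; with a sample left out they were 0 to 5. Of the likest genes, 24, there were 7 that stayed on deviations from group means.

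Fold changes that turned had not passed. With length offsets in edgeR and DESeq2 the log2 values were -0.32 in both for *Gli1* and 0.0960 and 0.1079 for *Hhip* (genotype, hippocampus), 0.11 in both for *Gli1* (tissue, WT), 0.0571 and 0.0692 for *Hhip* (interaction), and 0.000817 in edgeR for *Ptch1* (genotype, neocortex). Without the 3 libraries they were -0.0107 for *Gli1* (genotype, hippocampus), -0.00622 for *Smo* and -0.0699 for *Hhip* (genotype, neocortex), 0.0118 for *Hhip* (tissue, WT) and 0.0209 for *Gli2* (interaction). The cause was not tested. With a sample left out, the genotype values ran in hippocampus from -0.0148 to 0.185 for *Smo* and from -0.126 to 0.175 for *Gli1*, and in neocortex from -0.0988 to 0.0116 for *Ptch1*, -0.0268 to 0.118 for *Smo*, -0.0308 to 0.120 for *Gli3* and -0.0699 to 0.213 for *Hhip*. *Hhip* between tissues in WT ran from -0.108 to 0.149, and in the interaction *Smo* ran from -0.0694 to 0.131 and *Gli2* from -0.0987 to 0.0437.

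Over all genes, 17 were called between genotypes in hippocampus (4 to 138 over the alternatives, 138 by DESeq2, and 10 to 31 with a sample left out), 47 in neocortex (26 to 240, and 27 to 566) and 3 in the interaction (0 to 6, and 1 to 20). Correlations of same-numbered samples ran from -0.172 to 0.177, with 1 of 5 over 0.1 in 3 comparisons. Between the tissues of null mice all 5 were positive (0.0165 to 0.177), with 3 of 5 over 0.1 and 3 of 5 best with their own number, a hint of pairing from the data alone. Since not every pair was over 0.1 and the labels name no shared mice, numbers were not taken as pairs. A replicate block gave 0, 0, 2, 3 and 0 of the 8 in the 5 comparisons, and 4, 30, 5044, 4041 and 0 of all genes. Depth limits *Shh*, with 6 to 40 estimated counts per sample, and *Gli1*, with 22 to 84.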
